A study of Mus musculus with 24 samples.

Results

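The genes described here code for Wnt ligands, the proteins that export them, their receptors and the secreted proteins that bind them or their receptors, in the mouse digit tip after amputation. They were chosen by name alone: every row of the table named Wnt, Fzd, Sfrp, Dkk or Rspo with a number, plus Frzb, Wif1, Lrp5, Lrp6, Ror1, Ror2, Ryk, Porcn and Wls. That gives 41 of the 15055 genes measured: 14 ligands, 2 genes of ligand export, 10 frizzled receptors, 5 other receptors, 7 secreted inhibitors and 3 R-spondins. All 41 were tested, and no filter on low values was applied to the rows of the table. Other family members, such as Wnt1, Wnt7a, Dkk1 and Rspo2, had no row in the table and could not be examined. In 34 of them every library reached a value of at least 20.

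The animals were C57BL/6 mice, an inbred laboratory strain, aged 10 to 12 weeks. Hind limb digits were amputated at a distal level, after which the tip is known to grow back in this species, or at a proximal level, after which it is known not to. The tissue around the stump, which the labels give as bone, cartilage, marrow, dermis and epidermis together, was collected 12, 14 or 21 days later. Total RNA depleted of ribosomal RNA was sequenced in 24 libraries, 4 for each of the 6 groups of level and day. No uninjured tissue was among the groups analysed here. Nothing in the labels ties each library to an animal of its own. Each p-value therefore reflects library-to-library spread, part of which may be technical. In bulk tissue, fewer cells of a type and less RNA per cell cannot be told apart.

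Wnt proteins are lipid-modified signals. The acyltransferase Porcn attaches the lipid and the carrier Wls takes the ligand to the cell surface, where it binds a frizzled receptor. With Lrp5 or Lrp6 as coreceptor the signal stabilises beta-catenin, which acts with the Tcf and Lef transcription factors; with Ror1, Ror2 or Ryk it can take routes that do not need beta-catenin. Secreted frizzled-related proteins (Sfrp1, Sfrp2, Sfrp4 and Frzb) and Wif1 bind the ligands, Dkk2 binds Lrp5 and Lrp6, and R-spondins raise the number of receptors on the cell. In bone the pathway is known for its part in osteoblast formation, and in skin for its part in hair and nail growth.

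Values are the deposited normalised values, listed for replicates 1 to 4 in order, and a mean is given ± SD (n = 4 libraries). Differences are on the scale of log2(value + 1), distal minus proximal or later minus earlier day, ± the moderated standard error of limma. A gene was called when its Benjamini-Hochberg adjusted p over all 15055 genes was under 0.05. Sequencing depth is unknown, and on this scale the change of a low gene is understated. Upper quartiles ran from 902.5 to 930.5 across libraries. Every measured marker of epidermis, nail matrix, osteoblast, osteocyte, cartilage, osteoclast, fibroblast, tendon and endothelium was above 0 in every library, and adipocyte markers were not analysed here.

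At 12 days, 13 of the 41 genes differed between levels, against 20.3% of all genes. Of these, 10 were lower after distal amputation (11.0% of all genes were lower) and 3 were higher (9.25%). The lower genes were the ligands Wnt5a, Wnt9a and Wnt10b, both export genes, the receptors Fzd1, Fzd2 and Fzd8, and the inhibitors Dkk2 and Dkk3. The higher genes were Fzd3, Sfrp1 and Sfrp4. In 15 members the 4 distal and 4 proximal values did not overlap, which held for 23.0% of all genes. The median difference over the members was -0.08, against -0.03 over all genes.

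At 14 days, 2 of 41 were called, Wnt16 and Sfrp1, both higher after distal amputation, against 5.39% of all genes (3.06% higher and 2.32% lower). This share is near the background. Groups did not overlap for 6 members, against 11.3% of all genes, and the median difference was 0.03, against 0.00.

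At 21 days, 9 of 41 differed, against 17.6% of all genes. After distal amputation 8 were higher (8.22% of all genes were) and 1 was lower (9.43%). The higher genes were Wnt5a, Wnt9b, Wnt11, Wls, Fzd3, Ror2, Frzb and Dkk3, and the lower one was Fzd10. Groups did not overlap for 7 members, against 18.8% of all genes. The median difference was 0.12 over the members and -0.05 over all genes. When libraries were scaled to their table totals, the split at 21 days was 5 higher and 6 lower and the median over all genes moved to -0.19; Dkk3, Fzd3 and Ror2 were then not called, and Fzd4, Fzd7, Porcn, Wnt7b and Wnt10b were called lower.

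Across the 3 days 19 members were called between levels at least once, 5 of them on 2 days and 22 on none. Among all genes 34.5% were called at least once. Wnt5a, Wls and Dkk3 were lower at 12 days and higher at 21 days after distal amputation. The Wnt5a call at 12 days and the Dkk3 call at 21 days were lost when single libraries were left out and under some other settings, as given below. The change from 12 to 21 days itself differed between levels for 10 of 41 members, against 14.8% of all genes. It was more positive after distal amputation for Wnt5a, Wnt9a, Wnt11, Wls, Fzd1, Fzd2, Fzd8, Frzb and Dkk3 (9 members, against 7.42% of all genes) and more negative for Sfrp4 (1 member, against 7.42%). The median of this difference was 0.18 over the members and -0.01 over all genes. All 10 calls of this difference held when any 1 library of the 4 groups was left out. On table totals the Fzd8 call was lost (adjusted p 0.0673).

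**Figure D1:**
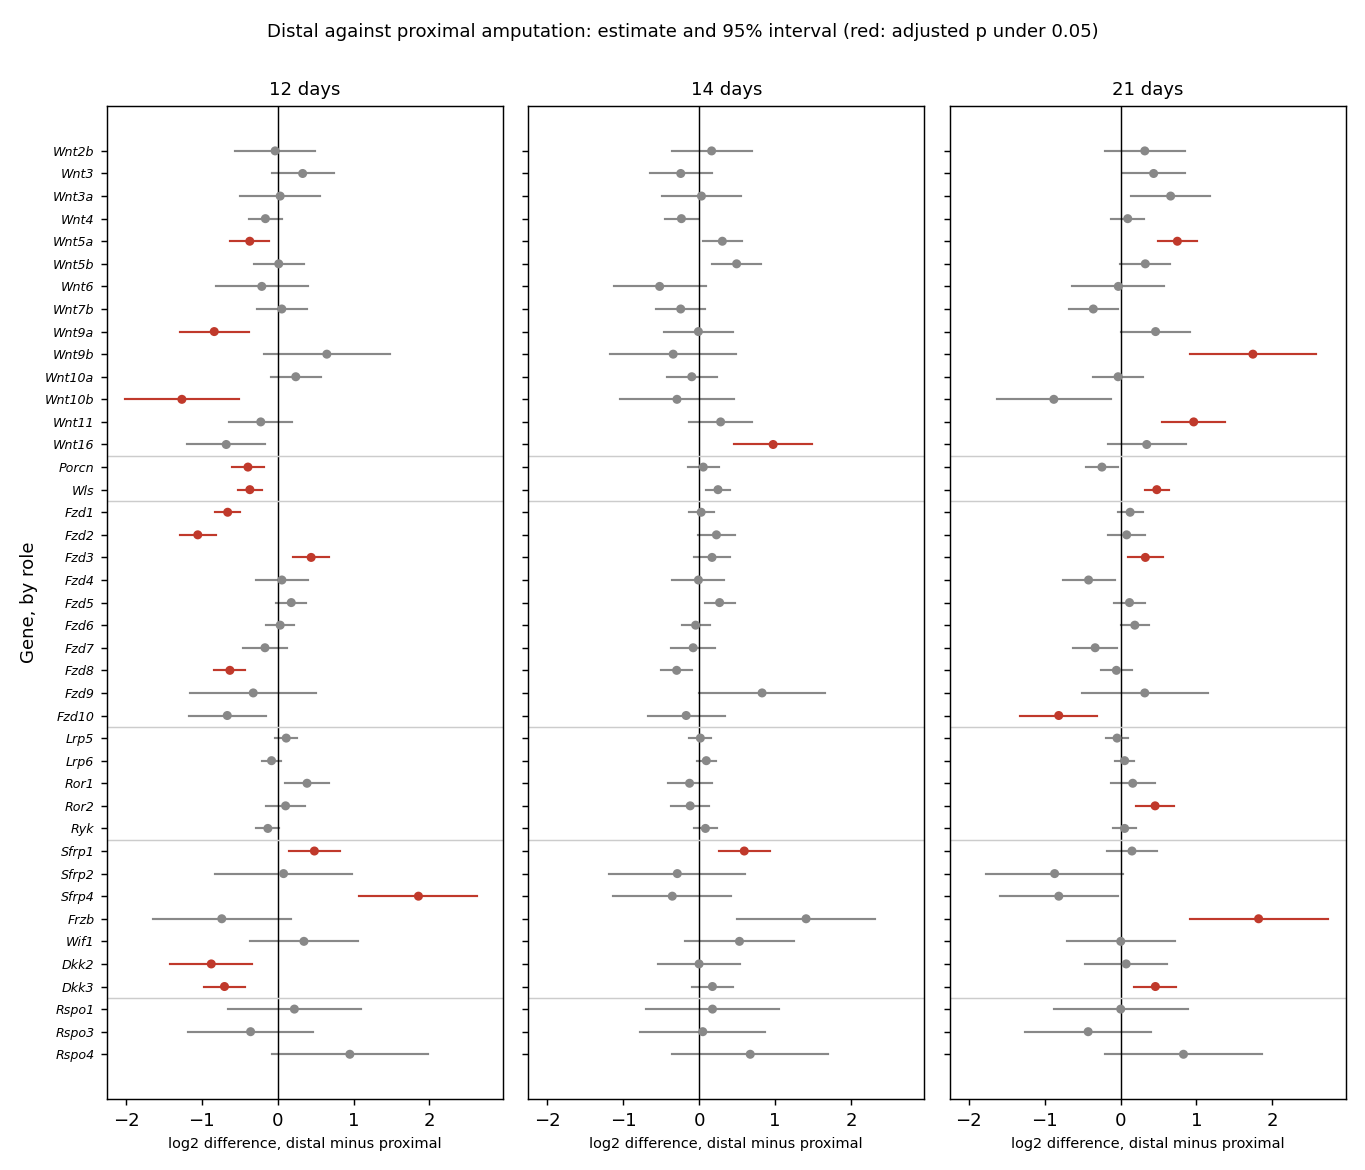
Each point is the log2 difference between distal and proximal amputation for 1 gene, with its 95% interval, at 12, 14 and 21 days; the vertical axis orders the 41 genes by role and red marks an adjusted p under 0.05. Called points lie mostly left of 0 at 12 days (10 of 13) and right of 0 at 21 days (8 of 9), with 2 called at 14 days.

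Over time the median difference of the members was positive from 12 to 14 days and negative from 14 to 21 days. After distal amputation it was 0.21 and then -0.33, against 0.01 and -0.04 over all genes, and after proximal amputation 0.10 and then -0.40, against -0.01 and -0.00. From 12 to 14 days after distal amputation, 16 of 41 changed, 14 upward and 2 downward, against 19.4% of all genes (11.2% upward and 8.12% downward). From 14 to 21 days 19 changed, 3 upward and 16 downward, against 34.8% (13.3% upward and 21.5% downward); with median-ratio factors the split was 5 and 13. From 12 to 21 days 13 changed, 9 upward and 4 downward, against 23.8% (8.81% upward and 15.0% downward). On table totals the split was 5 and 7, with the median over all genes at -0.09 in place of -0.02. The mean over libraries was highest at 14 days for 27 members after distal amputation, at 12 days for 5 and at 21 days for 9, whereas 37.5%, 29.8% and 32.7% of all genes had their highest mean on those days.

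After proximal amputation, 9 of 41 changed from 12 to 14 days, 5 upward and 4 downward, against 15.2% of all genes (7.35% upward and 7.84% downward). On table totals the split was 1 and 6, with the median over all genes at -0.10 in place of -0.01. From 14 to 21 days 17 changed, 1 upward and 16 downward, against 28.7% (12.5% upward and 16.3% downward). On table totals this split was 4 and 13, with the median over all genes at 0.11 in place of -0.00. From 12 to 21 days 15 changed, 3 upward and 12 downward, against 29.0% (12.0% upward and 17.0% downward). The highest mean fell at 12 days for 12 members, at 14 days for 21 and at 21 days for 8, against 34.3%, 30.5% and 35.2% of all genes. Comparisons between days share a group of libraries, so their calls are not independent of each other.

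**Figure D2:**
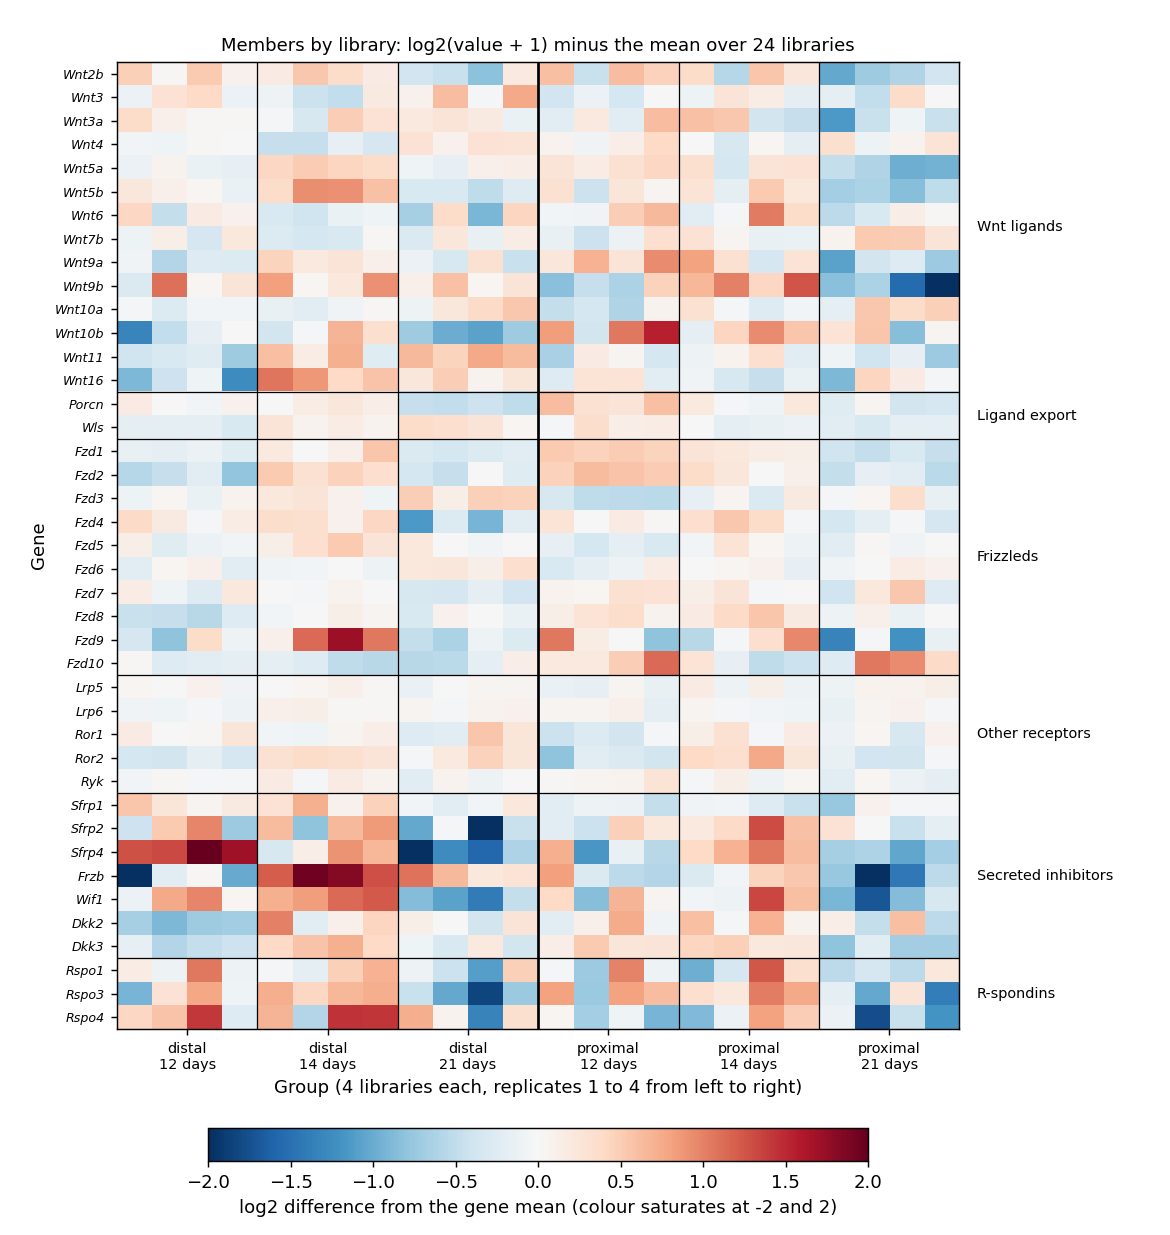
Each row is 1 of the 41 genes, in order of role, and each column 1 of the 24 libraries; colour is log2(value + 1) minus the gene's mean over all libraries, saturating at 2 in either direction. Distal libraries at 14 days are mostly red for most inhibitors, for Rspo3 and for Fzd2, Fzd4 and Fzd5, but not for Fzd6, Fzd7 or Fzd10. At 14 days Sfrp2 and Sfrp4 are red in the proximal libraries too. Proximal libraries at 21 days are mostly blue, and Lrp5, Lrp6 and Ryk stay pale throughout.

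Several sets of marker genes of the tissue moved with these groups. The summed value of 4 fibroblast markers (Pdgfra, Dpt, Dcn and Lum) ran from 27605 to 38136 in the distal libraries at 14 days, above the ranges at 12 days (12816 to 20279) and 21 days (11809 to 21756). In the proximal libraries it ran from 18802 to 21949, from 17639 to 22667 and from 8438 to 12781 on the 3 days. Of the 4, 1 was lower after distal amputation at 12 days, 1 was higher at 14 days and 1 was higher at 21 days. After distal amputation 2 of the 4 were called higher from 12 to 14 days and 3 lower from 14 to 21 days. Lum had the largest values of the 4, up to 26458, against 8306 for Dcn, 2793 for Pdgfra and 1960 for Dpt. Of 3 tendon markers, 2 were lower after distal amputation at 12 days and 1 was higher at 21 days. Their sum was 412 to 563 in distal and 613 to 895 in proximal libraries at 12 days, and 421 to 598 against 310 to 471 at 21 days. All 5 nail matrix markers were higher after distal amputation at 12 and 21 days. Their sum was 66340 to 124746 against 5343 to 28359 at 12 days and 120193 to 308196 against 25651 to 72173 at 21 days. At 14 days 0 of the 5 were called, and the sums overlapped (86142 to 219795 against 71081 to 173732). Of 3 cartilage markers 2 were lower after distal amputation at 12 days, with sums of 956 to 2141 against 2836 to 8040. Acan had the largest values of the 3, up to 7898, against 500 for Col2a1 and 61 for Col9a1. From 14 to 21 days the summed value of 5 osteoblast markers ranged over 14276 to 37747 and then 1640 to 3483 in distal libraries, with all 5 called lower, and over 7718 to 22197 and then 2315 to 4344 in proximal ones, with 4 called lower. Over the same days the 3 endothelial markers were lower at both levels, with sums of 2513 to 4071 and then 1196 to 2025 distally and of 3430 to 4735 and then 1604 to 2547 proximally. Of 3 osteocyte markers, 2 were lower at both levels, with sums of 897 to 1615 and then 121 to 325 distally and of 504 to 1328 and then 88 to 215 proximally. All 3 osteoclast markers (sums of 9495 to 25421 and then 2717 to 8047) and all 3 macrophage markers (1453 to 1912 and then 621 to 1027) were lower distally, against 1 and 0 called proximally. Of 4 epidermis markers, 2 were higher distally (sums of 177744 to 280398 and then 314972 to 469012) and 0 were called proximally. The part of these cell types in the differences of the Wnt genes was not tested.

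Promoter sequences are shown for those of the 10 genes with differing changes in which the letters of the Tcf and Lef recognition core were found. The motif CTTTGA was searched on both strands in the 250 bases before each start site of the RefSeq table (GRCm38.p6), in which 13.8% of 32851 windows hold it. Of the 41 members 27 have an entry, and 5 of these (18.5%) hold the motif: Frzb, Fzd1, Ror1, Wnt11 and Wnt5b. This is a share of genes, with a match in any window of a gene counted, and is not directly comparable with the share of windows. Wnt5b has 3 windows and Wnt11 has 2, of which the one nearest the annotated gene edge is shown. Of the 10 genes, 5 have an entry and 3 hold it. The windows run 5′ to 3′ on the gene's strand, with the match in capitals. They are chr2:80447397-80447646 (minus) for Frzb, chr7:98834862-98835083 (plus) for Wnt11 and chr5:4758217-4758466 (minus) for Fzd1; the Wnt11 window is shorter because it ends where the annotated gene begins.
Frzb: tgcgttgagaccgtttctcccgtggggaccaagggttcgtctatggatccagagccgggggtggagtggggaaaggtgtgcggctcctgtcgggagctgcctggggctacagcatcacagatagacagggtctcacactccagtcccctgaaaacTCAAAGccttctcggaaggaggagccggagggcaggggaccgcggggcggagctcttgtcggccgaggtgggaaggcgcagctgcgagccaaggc
Wnt11: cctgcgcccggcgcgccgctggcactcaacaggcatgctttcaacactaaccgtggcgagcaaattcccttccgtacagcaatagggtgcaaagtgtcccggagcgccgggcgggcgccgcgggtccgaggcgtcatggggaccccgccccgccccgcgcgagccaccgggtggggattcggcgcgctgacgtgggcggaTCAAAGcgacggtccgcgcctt
Fzd1: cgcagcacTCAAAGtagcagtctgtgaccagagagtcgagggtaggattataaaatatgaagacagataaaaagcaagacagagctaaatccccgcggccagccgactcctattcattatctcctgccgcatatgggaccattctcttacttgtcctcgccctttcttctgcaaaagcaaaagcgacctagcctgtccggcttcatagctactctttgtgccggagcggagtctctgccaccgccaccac
Each holds 1 match, read on the opposite strand, which begins 95 bases before the table's start site in Frzb, 50 in Wnt11 and 242 in Fzd1. A match describes these letters and not a bound site.

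Wnt5a (chr14:28504543-28527448, GRCm38.p6), a ligand best known for signalling without beta-catenin, was lower after distal amputation at 12 days and higher at 21 days. Wnt5a at 12 days stood at 1278, 1455, 1266 and 1230 in the distal libraries and 1659, 1539, 1715 and 1836 in the proximal ones. At 14 days Wnt5a was 1851, 1973, 1859 and 1795 after distal and 1725, 1085, 1653 and 1687 after proximal amputation. At 21 days Wnt5a was 1303, 1237, 1491 and 1518 distally and 999, 909, 703 and 717 proximally. The distal values thus lay below all proximal values at 12 days and above all of them at 14 and 21 days. The difference was -0.37 ± 0.13 at 12 days (adjusted p = 0.0408), 0.31 ± 0.13 at 14 days (adjusted p = 0.16) and 0.75 ± 0.13 at 21 days (adjusted p = 0.000408). Its change from 12 to 21 days was 1.12 ± 0.18 more positive after distal amputation (adjusted p = 0.00025), with a proximal change of -1.03 ± 0.13 (adjusted p = 2.58e-06). The 12-day call was lost without distal 12-day replicate 1, 3 or 4 or proximal 12-day replicate 1, 3 or 4 (adjusted p 0.0635 to 0.111) and with median-ratio factors (0.0624).

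Wnt11 (chr7:98835084-98854747), another ligand known for signalling without beta-catenin and a gene whose window above holds the motif, was higher after distal amputation at 21 days. Wnt11 at 12 days was 115, 123, 129 and 93 in distal and 97, 171, 159 and 120 in proximal libraries. The 14-day values of Wnt11 were 233, 169, 251 and 129 against 142, 161, 192 and 132. Those at 21 days were 240, 207, 260 and 236 against 143, 116, 136 and 92. Groups overlapped at 12 and 14 days, and at 21 days every distal library was above every proximal one (0.96 ± 0.20, a 1.95-fold difference, adjusted p = 0.00244). From 12 to 21 days Wnt11 changed by 1.04 ± 0.20 after distal amputation (adjusted p = 0.000694), and the difference of this change between levels was 1.19 ± 0.28 (adjusted p = 0.00639).

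Wnt9a (chr11:59306849-59333552), a ligand known from joint formation, started lower after distal amputation. Wnt9a at 12 days was 254, 177, 224 and 220 distally and 313, 436, 321 and 518 proximally, with no overlap (-0.84 ± 0.22, adjusted p = 0.00924). At 14 days Wnt9a was 365, 307, 319 and 288 against 469, 332, 211 and 322, and at 21 days 246, 215, 332 and 196 against 127, 208, 224 and 161. Both later pairs of groups overlapped and neither was called. The proximal values fell from 12 to 21 days by 1.14 on the log2 scale (adjusted p = 0.000469), and the difference between levels in that change was 1.30 ± 0.31 (adjusted p = 0.00635).

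Wnt9b (chr11:103727362-103775272, minus strand) had the lowest mean per kilobase of the members over all libraries. Its locus overlaps that of Wnt3 (chr11:103774175-103818021, plus strand), and no source used here says whether reads were assigned by strand, so both genes are uncertain. Wnt9b at 12 days was 18, 49, 23 and 27 in distal and 12, 16, 14 and 31 in proximal libraries. At 14 days it was 40, 23, 26 and 43 against 36, 46, 30 and 55. At 21 days it was 24, 34, 23 and 27 against 12, 14, 7 and 2, and only on this day did the groups not overlap (1.74 ± 0.40, adjusted p = 0.00514; 1.12 with a pseudocount of 8). Wnt3 ranged over group means of 276 to 419 and was not called between levels. The Wnt3 rise from 14 to 21 days after distal amputation (0.57 ± 0.20, adjusted p = 0.0283) was lost without distal 14-day replicate 2 or 3 or distal 21-day replicate 2 or 4 (adjusted p 0.085 to 0.115) and with only the compared groups fitted (0.0594).

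Wnt10b (chr15:98770712-98778206), a ligand known to favour osteoblast formation, was lower after distal amputation at 12 days. Wnt10b on that day was 41, 74, 93 and 103 in distal and 186, 80, 217 and 308 in proximal libraries. On day 14 Wnt10b was 80, 102, 167 and 130 against 92, 141, 202 and 153, and on day 21 63, 52, 49 and 63 against 126, 154, 57 and 108. The groups overlapped on all days, with 1 proximal library near the distal ones at 12 days. The 12-day difference of -1.26 ± 0.36 (adjusted p = 0.0165) was lost without distal 12-day replicate 1 or proximal 12-day replicate 4 (adjusted p 0.0707 to 0.0711) and with only the compared groups fitted (0.0583). At 21 days the estimate was -0.88 ± 0.36 (adjusted p = 0.0953).

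Wnt16 (chr6:22288178-22298522), a ligand known for its effect on cortical bone, was the ligand called at 14 days. Wnt16 at 12 days was 67, 95, 119 and 52 in distal and 105, 153, 152 and 108 in proximal libraries. The 14-day values of Wnt16 were 267, 230, 167 and 188 against 120, 101, 91 and 115, without overlap. At 21 days Wnt16 was 148, 178, 132 and 150 against 67, 170, 141 and 124. The 14-day difference was 0.97 ± 0.25 (adjusted p = 0.0269) and was lost without distal 14-day replicate 1 or 2 or proximal 14-day replicate 2 or 3 (adjusted p 0.0628 to 0.0803). The distal rise from 12 to 14 days was 1.39 ± 0.25 (adjusted p = 0.000544), and the difference between levels in the 12 to 21 day change was 1.02 ± 0.35 (adjusted p = 0.0534). That difference passed the threshold with median-ratio factors (0.0467), with the minimum mean of 50 (0.049) and with sample weights (0.027).

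The other 8 ligands were not called between levels on any day. Per length, Wnt10a, known from skin appendages and teeth, and Wnt4 were the most abundant ligands. Wnt10a ranked first in 5 groups and Wnt4 in the proximal group at 12 days, in values per kilobase of the gene length that the table gives. In the distal group at 12 days Wnt10a stood at 399 ± 29.6 per kilobase and Wnt4 at 394 ± 12.9, a difference within their spread. In the distal group at 14 days the values were 399.6 ± 30.5 and 316 ± 31.5. In the proximal group at 12 days they were 343 ± 73.5 and 444 ± 63.9. Wnt5a came next in 5 groups, while Wnt7b stood above it in the proximal group at 21 days (190.5 ± 28 against 106 ± 18.6 per kilobase).

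Group means of Wnt10a ran from 847 to 1320, and it rose from 12 to 21 days after proximal amputation (0.64 ± 0.16, adjusted p = 0.00459). Group means of Wnt4 ran from 1325 to 1990; after distal amputation it fell from 12 to 14 days (-0.32 ± 0.10, adjusted p = 0.0314) and rose from 14 to 21 days (0.59 ± 0.10, adjusted p = 0.000154). The first of these Wnt4 calls was lost without distal 12-day replicate 1, 3 or 4 or distal 14-day replicate 1, 2 or 4 (adjusted p 0.0536 to 0.089). Wnt7b, with group means of 564 to 841, rose from 12 to 21 days after proximal amputation (0.43 ± 0.16, adjusted p = 0.0442), a call lost without proximal 12-day replicate 1, 2 or 3 or proximal 21-day replicate 2, 3 or 4 (adjusted p 0.0576 to 0.161) and with only the compared groups fitted (0.0762). Wnt5b, at 122 to 322, rose from 12 to 14 days after distal amputation (0.64 ± 0.16, adjusted p = 0.00646). From 14 to 21 days Wnt5b fell after distal (-1.05 ± 0.16, adjusted p = 3.03e-05) and after proximal amputation (-0.88 ± 0.16, adjusted p = 0.000289), and its proximal change from 12 to 21 days was -0.71 ± 0.16 (adjusted p = 0.00176). Wnt2b, at 40.2 to 83.2, fell from 14 to 21 days at both levels (-0.67 ± 0.25, adjusted p = 0.0453, and -0.82 ± 0.25, adjusted p = 0.0189). The distal Wnt2b call was lost without distal 14-day replicate 1, 2, 3 or 4 or distal 21-day replicate 1, 2 or 3 (adjusted p 0.0553 to 0.146), with median-ratio factors (0.0627) and with sample weights (0.0597), and the proximal one without proximal 14-day replicate 3 or proximal 21-day replicate 1 (adjusted p 0.0596 to 0.0718). Wnt2b also fell from 12 to 21 days after proximal amputation (-0.99 ± 0.25, adjusted p = 0.00544). Wnt3a (group means 81.8 to 128) and Wnt6 (78 to 119) were called in none of the 10 comparisons.

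**Figure D3:**
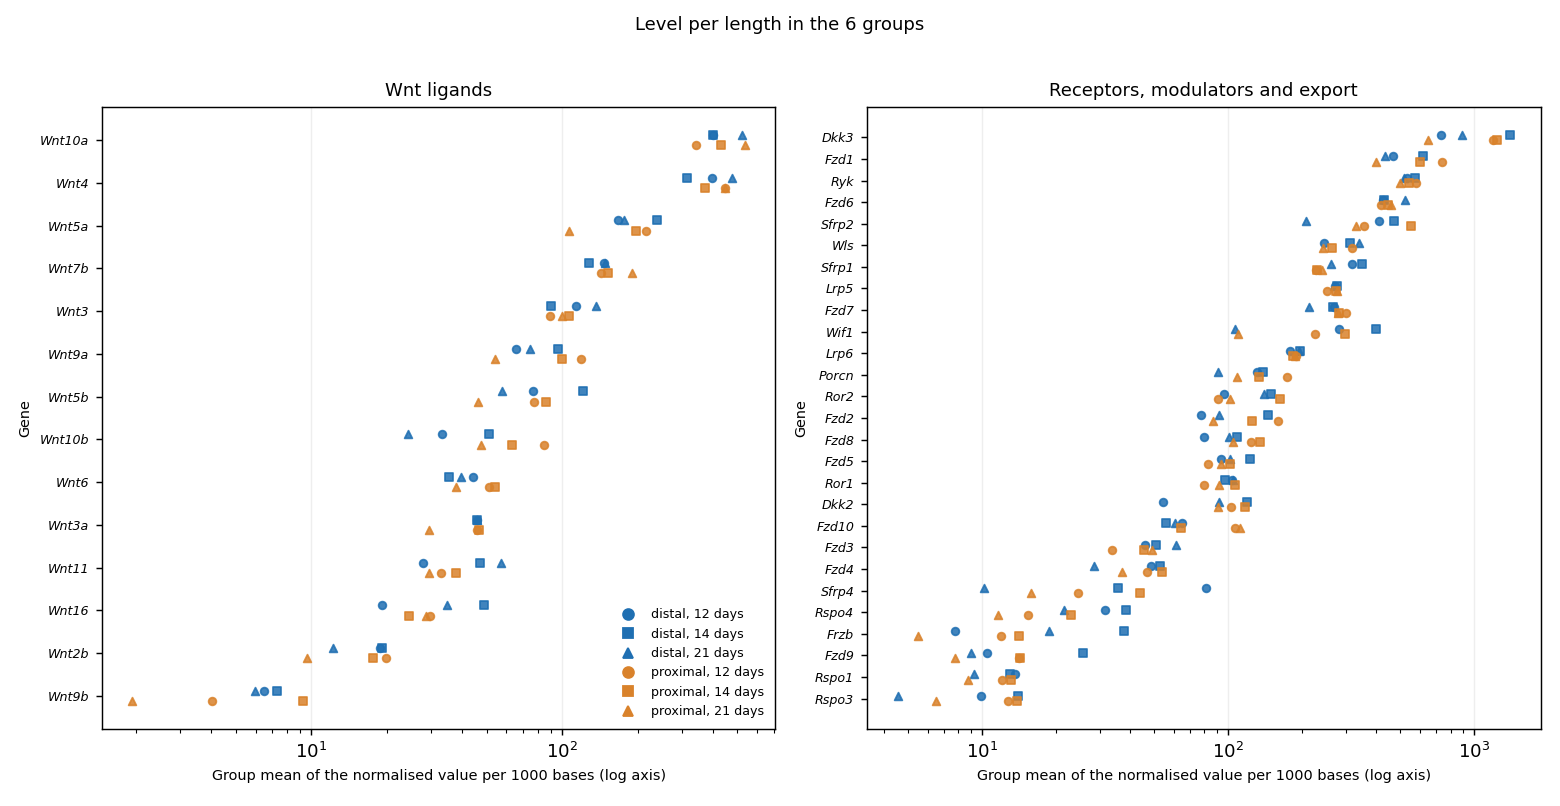
Group means of the normalised value per kilobase of gene length, on a log axis, for the ligands (left) and all other members (right); blue marks distal and orange proximal amputation, and the shape marks the day. Genes are ordered by their mean over all libraries, with Wnt10a and Dkk3 at the top of the panels and Wnt9b and Rspo3 at the bottom.

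Of the export genes, Wls (chr3:159839650-159938666) had differences of the same sign as Wnt5a on all 3 days. Wls at 12 days was 2199, 2213, 2199 and 2023 in distal and 2460, 3199, 2743 and 2774 in proximal libraries. At 14 days Wls was 2983, 2611, 2778 and 2625 against 2513, 2198, 2255 and 2291, and at 21 days 3209, 3163, 2993 and 2565 against 2143, 2023, 2200 and 2176. On each day the groups did not overlap: the distal values were the lower ones at 12 days and the higher ones at 14 and 21 days. The difference was -0.37 ± 0.08 at 12 days (adjusted p = 0.00173), 0.25 ± 0.08 at 14 days (adjusted p = 0.0596) and 0.48 ± 0.08 at 21 days (adjusted p = 0.000277). From 12 to 21 days Wls rose after distal amputation (0.46 ± 0.08, adjusted p = 0.000159) and fell after proximal amputation (-0.38 ± 0.08, adjusted p = 0.000711). The difference between these changes was 0.84 ± 0.11 (adjusted p = 3.19e-05).

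Porcn (chrX:8193846-8206548) was lower after distal amputation at 12 days and fell over time at both levels. Porcn at 12 days was 423, 381, 365 and 404 in distal and 583, 467, 451 and 575 in proximal libraries (-0.39 ± 0.10, adjusted p = 0.00815). At 14 days Porcn was 378, 419, 444 and 414 against 435, 368, 356 and 439, and at 21 days 274, 269, 285 and 267 against 319, 394, 294 and 301. All distal values lay below all proximal ones at 12 and 21 days, but the 21-day difference was not called (-0.25 ± 0.10, adjusted p = 0.092). Porcn changed from 12 to 21 days by -0.52 ± 0.10 distally (adjusted p = 0.000697) and by -0.66 ± 0.10 proximally (adjusted p = 3.62e-05), and these changes did not differ between levels past the threshold (0.15 ± 0.14, 95% interval -0.15 to 0.44).

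Among the frizzled receptors, Fzd1, Fzd2 and Fzd8 were lower after distal amputation at 12 days. Fzd1 (chr5:4753839-4758216) at 12 days was 2003, 1927, 2047 and 1864 in distal and 3175, 3053, 3150 and 3003 in proximal libraries. At 14 days Fzd1 was 2537, 2210, 2381 and 3248 against 2642, 2562, 2469 and 2412, and at 21 days 1809, 1739, 1832 and 1885 against 1672, 1594, 1789 and 1608. The 12-day groups lay far apart (-0.66 ± 0.08, a 1.58-fold difference, adjusted p = 5.44e-06), and those of the later days overlapped. After proximal amputation Fzd1 fell from 12 to 21 days (-0.89 ± 0.08, adjusted p = 3.32e-08). The difference between levels in this change was 0.78 ± 0.11 (adjusted p = 8.73e-05).

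Fzd2 (chr11:102604431-102608058) at 12 days was 270, 290, 344 and 231 in distal and 551, 619, 598 and 570 in proximal libraries. At 14 days Fzd2 was 576, 494, 550 and 508 against 516, 470, 403 and 432, and at 21 days 315, 290, 398 and 338 against 287, 359, 346 and 276. The 12-day difference was -1.05 ± 0.12 (a 2.08-fold difference, adjusted p = 2.04e-06) with no overlap, while the later groups overlapped. Distal Fzd2 rose from 12 to 14 days (0.92 ± 0.12, adjusted p = 1.79e-05) and fell from 14 to 21 days (-0.67 ± 0.12, adjusted p = 0.00012). Proximal Fzd2 fell from 12 to 21 days (-0.89 ± 0.12, adjusted p = 6.03e-06), and the 12 to 21 day changes differed by 1.13 ± 0.16 (adjusted p = 9.65e-05).

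Fzd8, on chromosome 18, at 12 days was 263, 258, 244 and 300 in distal and 387, 433, 457 and 374 in proximal libraries. At 14 days Fzd8 was 343, 356, 388 and 369 against 402, 468, 523 and 405, and at 21 days 288, 378, 355 and 327 against 333, 385, 324 and 355. Distal values lay below all proximal ones at 12 and 14 days and overlapped them at 21 days. The difference was -0.63 ± 0.10 at 12 days (adjusted p = 0.000114) and -0.30 ± 0.10 at 14 days (adjusted p = 0.08). The difference in the 12 to 21 day change, 0.57 ± 0.14 (adjusted p = 0.00738), was lost on table totals (0.48, adjusted p 0.0673).

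Fzd3 was higher after distal amputation at 12 and 21 days, and Fzd10 was lower at 21 days. Fzd3 (chr14:65192441-65262463) at 12 days was 559, 614, 548 and 631 in distal and 480, 424, 415 and 413 in proximal libraries, a difference of 0.44 ± 0.11 (adjusted p = 0.00826) with no overlap. At 14 days Fzd3 was 691, 717, 639 and 566 against 538, 622, 491 and 681, and at 21 days 842, 648, 834 and 827 against 592, 617, 766 and 544. The groups overlapped on both later days. Its 21-day call (0.33 ± 0.11, adjusted p = 0.049) was lost without distal 21-day replicate 1, 3 or 4 or proximal 21-day replicate 1, 2 or 4 (adjusted p 0.0925 to 0.15), on table totals (0.273), with only the compared groups fitted (0.104) and with sample weights (0.0779); the estimate on table totals was 0.18. Fzd10 (chr5:128601106-128604093) at 12 days was 239, 197, 202 and 207 in distal and 270, 270, 332 and 517 in proximal libraries, which did not overlap (-0.66 ± 0.25, adjusted p = 0.0588) and passed the threshold on table totals (0.0403) and with only the compared groups fitted (0.0409). At 14 days Fzd10 was 207, 197, 165 and 160 against 286, 210, 165 and 175, and at 21 days 160, 162, 208 and 258 against 196, 489, 454 and 309, with overlap on both days. Its 21-day call (-0.82 ± 0.25, adjusted p = 0.0255) was lost without distal 21-day replicate 1 or 2 or proximal 21-day replicate 2 or 3 (adjusted p 0.0706 to 0.0951) and with only the compared groups fitted (0.0797).

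The remaining 5 frizzleds were not called between levels. Fzd4, the receptor for norrin in vessels, had group means of 192 to 361 and fell from 14 to 21 days after distal amputation (-0.94 ± 0.16, adjusted p = 0.000153). The 3 endothelial markers were called lower from 14 to 21 days at both levels (median -1.21 distally and -1.01 proximally) and from 12 to 21 days distally (median -0.81); their part in the Fzd4 values was not tested. Distal Fzd4 changed from 12 to 21 days by -0.81 ± 0.16 (adjusted p = 0.00113). Its proximal fall from 14 to 21 days (-0.52 ± 0.16, adjusted p = 0.0211) was lost without proximal 14-day replicate 2 or 3 or proximal 21-day replicate 1 or 4 (adjusted p 0.0511 to 0.0664) and on table totals (0.0586). Fzd5, at 570.5 to 846, rose from 12 to 14 days after distal (0.38 ± 0.10, adjusted p = 0.00715) and proximal amputation (0.29 ± 0.10, adjusted p = 0.0411). The proximal call was lost without proximal 12-day replicate 2, 3 or 4 or proximal 14-day replicate 2 or 3 (adjusted p 0.0524 to 0.137). It was also lost on table totals (0.26), with only the compared groups fitted (0.0778) and with a replicate block (0.0577). The distal fall of Fzd5 from 14 to 21 days (-0.26 ± 0.10, adjusted p = 0.036) was lost without distal 14-day replicate 2 or 3 or distal 21-day replicate 2, 3 or 4 (adjusted p 0.0713 to 0.141). This call was also lost with median-ratio factors (0.102), on table totals (0.0563), with only the compared groups fitted (0.0585) and with a replicate block (0.0507). Fzd6, known for hair and nail growth, had group means of 1720 to 2166 and rose from 12 to 21 days after distal amputation (0.31 ± 0.09, adjusted p = 0.0145), lost without distal 12-day replicate 1 or 4 or distal 21-day replicate 4 (adjusted p 0.0506 to 0.0573) and on table totals (0.0686), and from 14 to 21 days (0.29 ± 0.09, adjusted p = 0.0155), lost without distal 21-day replicate 4 (adjusted p 0.0559) and on table totals (0.0518). Fzd9, at 17.8 to 59, rose from 12 to 14 days after distal amputation (1.22 ± 0.40, adjusted p = 0.0353) and fell from 14 to 21 days (-1.37 ± 0.40, adjusted p = 0.0105); the rise was lost without distal 12-day replicate 1, 2 or 4 or distal 14-day replicate 2, 3 or 4 (adjusted p 0.0581 to 0.121). Fzd7, at 969 to 1358, was called in none of the 10 comparisons. Per kilobase, Fzd1 was the highest frizzled at 12 and 14 days and Fzd6 at 21 days at both levels, with 524 ± 33.7 for Fzd6 and 433 ± 14.4 for Fzd1 in the distal group at 21 days.

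The coreceptors Lrp5 and Lrp6 varied little. The highest group mean of Lrp5 was 1.10 times the lowest (2450 to 2697), and only 2.28% of all genes had a ratio as small or smaller. For Lrp6 the ratio was 1.10 (2432 to 2682), reached or undercut by 2.44% of all genes. The median ratio was 1.88 over the 41 members and 1.43 over all genes. Neither coreceptor was called in any of the 10 comparisons, and the 95% interval of the 21-day difference between levels was -0.19 to 0.10 for Lrp5 and -0.07 to 0.18 for Lrp6. Ryk, at 2253 to 2637, fell from 12 to 21 days after proximal amputation (-0.23 ± 0.07, adjusted p = 0.0221), a call lost without proximal 12-day replicate 4 or proximal 21-day replicate 1 or 4 (adjusted p 0.0645 to 0.0913), on table totals (0.117) and with only the compared groups fitted (0.0556). Per kilobase Ryk was the highest of these 5 receptors in every group, with 530.5 ± 12 against 272 ± 12.7 for Lrp5 in the distal group at 12 days.

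Ror2 (chr13:53109317-53286124), a receptor for Wnt5a, was the receptor of this kind that differed between levels. Ror2 at 12 days was 395, 394, 442 and 403 in distal and 290, 439, 415 and 393 in proximal libraries. At 14 days Ror2 was 629, 651, 634 and 607 against 666, 640, 855 and 600, and at 21 days 498, 583, 695 and 600 against 455, 390, 393 and 491. Group means were highest at 14 days at both levels, and at 21 days all distal libraries were above all proximal ones. From 12 to 14 days Ror2 rose distally (0.63 ± 0.12, adjusted p = 0.00111) and proximally (0.85 ± 0.12, adjusted p = 9.14e-05), and from 14 to 21 days it fell proximally (-0.67 ± 0.12, adjusted p = 0.000337). The 21-day difference between levels (0.45 ± 0.12, adjusted p = 0.0137) was lost without distal 21-day replicate 3 (adjusted p 0.0511) and on table totals (0.0723). Ror1, with group means of 459 to 612, did not overlap between levels at 12 days (0.39 ± 0.14, adjusted p = 0.0535) and passed the threshold there with median-ratio factors (0.0424), with only the compared groups fitted (0.0259) and with sample weights (0.0386). Its proximal rise from 12 to 14 days (0.42 ± 0.14, adjusted p = 0.0459) was lost without proximal 12-day replicate 1, 2 or 3 or proximal 14-day replicate 1, 2 or 4 (adjusted p 0.0726 to 0.127) and on table totals (0.123).

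Of the secreted inhibitors, Sfrp4 (chr13:19623175-19632825) differed most at 12 days. Sfrp4 at 12 days was 270, 281, 447 and 362 in distal and 184, 49, 101 and 76 in proximal libraries. At 14 days Sfrp4 was 89, 122, 208 and 177 against 148, 182, 232 and 172, and at 21 days 15, 46, 37 and 72 against 70, 72, 54 and 69. All distal values lay above all proximal ones at 12 days, and the groups overlapped later. The 12-day difference was 1.85 ± 0.38, a 3.62-fold difference (adjusted p = 0.00137). From 12 to 21 days Sfrp4 fell 8.79-fold after distal amputation (-3.14 ± 0.38, adjusted p = 6.7e-06). The proximal change was -0.47 ± 0.38 (adjusted p = 0.375), and the difference between them was -2.67 ± 0.53 (adjusted p = 0.00164).

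Frzb (chr2:80411970-80447396), a frizzled-related protein known from cartilage, was higher after distal amputation at 21 days. Frzb at 12 days was 7, 34, 40 and 19 in distal and 70, 32, 27 and 26 in proximal libraries. At 14 days Frzb was 93, 154, 143 and 98 against 32, 38, 54 and 58, and at 21 days 85, 62, 46 and 48 against 23, 7, 14 and 27. At 14 and 21 days every distal library exceeded every proximal one, whereas at 12 days the groups overlapped. The difference was 1.41 ± 0.44 at 14 days (adjusted p = 0.062) and 1.82 ± 0.44 at 21 days (a 3.53-fold difference, adjusted p = 0.00703). Distal Frzb rose 5.48-fold from 12 to 14 days (2.46 ± 0.44, adjusted p = 0.000536). Proximal Frzb fell from 14 to 21 days (-1.42 ± 0.44, adjusted p = 0.0185), a call lost without proximal 14-day replicate 3 or 4 or proximal 21-day replicate 2 (adjusted p 0.0513 to 0.0816). The difference between levels in the 12 to 21 day change was 2.56 ± 0.62 (adjusted p = 0.00736).

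Dkk3 (chr7:112116019-112159482), a divergent member of the Dickkopf family, had the highest mean per kilobase of the 41 genes in each of the 6 groups. Dkk3 at 12 days was 2915, 2177, 2336 and 2439 in distal and 3594, 4696, 3855 and 3885 in proximal libraries. At 14 days Dkk3 was 4288, 4816, 5341 and 4285 against 4397, 4559, 3786 and 3834, and at 21 days 3069, 2638, 3752 and 2529 against 1860, 2830, 2024 and 2023. The 12-day groups did not overlap (-0.70 ± 0.13, adjusted p = 0.000767), and those of the later days did. The 21-day call (0.46 ± 0.13, adjusted p = 0.0211) was lost without distal 21-day replicate 1 or 3 or proximal 21-day replicate 1, 3 or 4 (adjusted p 0.0531 to 0.0832), on table totals (0.126) and with only the compared groups fitted (0.0775). Distal Dkk3 rose from 12 to 14 days (0.93 ± 0.13, adjusted p = 6.58e-05), and the 12 to 21 day changes differed by 1.16 ± 0.19 (adjusted p = 0.0003).

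Sfrp1 and Dkk2 were the other inhibitors called between levels. Sfrp1 (chr8:23411383-23449632) at 12 days was 1690, 1373, 1195 and 1306 in distal and 996, 1074, 1064 and 832 in proximal libraries. At 14 days Sfrp1 was 1417, 1889, 1226 and 1584 against 1097, 1106, 968 and 850, and at 21 days 1112, 991, 1112 and 1339 against 680, 1228, 1141 and 1136. Distal values were above all proximal ones at 12 and 14 days and overlapped them at 21 days. The 12-day difference (0.48 ± 0.16, adjusted p = 0.0367) was lost without distal 12-day replicate 1, 2 or 4 or proximal 12-day replicate 1, 3 or 4 (adjusted p 0.0503 to 0.127) and on table totals (0.0721). The 14-day difference (0.59 ± 0.16, adjusted p = 0.0348) was lost without distal 14-day replicate 2 or 4 or proximal 14-day replicate 1, 2, 3 or 4 (adjusted p 0.0528 to 0.124) and with only the compared groups fitted (0.0582). Dkk2 (chr3:132085266-132180304) at 12 days was 211, 180, 205 and 206 in distal and 285, 358, 561 and 320 in proximal libraries. At 14 days Dkk2 was 671, 288, 361 and 453 against 507, 325, 545 and 353, and at 21 days 364, 337, 260 and 399 against 366, 241, 507 and 232. Only the 12-day groups did not overlap (-0.88 ± 0.26, adjusted p = 0.0201), a call lost without distal 12-day replicate 2 or proximal 12-day replicate 3 (adjusted p 0.0512 to 0.0863).

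Sfrp2 and Wif1 were not called between levels, and their libraries varied widely within groups. Sfrp2 had group means of 446 to 1191, and its distal fall from 14 to 21 days (-1.28 ± 0.43, adjusted p = 0.0247) was lost without distal 14-day replicate 1, 3 or 4 or distal 21-day replicate 3 (adjusted p 0.0627 to 0.119) and with only the compared groups fitted (0.0739); without distal 21-day replicate 3 the change was -0.83. Wif1 was at 965 ± 159 in the distal group at 14 days and 258 ± 70.3 at 21 days, a change of -1.92 ± 0.34 (adjusted p = 0.000177). In the proximal groups Wif1 was at 720 ± 361 and 265 ± 97.7 on these days (-1.39 ± 0.34, adjusted p = 0.00431). Wif1 fell from 12 to 21 days after distal (-1.36 ± 0.34, adjusted p = 0.00609) and proximal amputation (-1.02 ± 0.34, adjusted p = 0.0291), the latter lost without proximal 12-day replicate 1, 3 or 4 or proximal 21-day replicate 2 (adjusted p 0.0513 to 0.112) and with only the compared groups fitted (0.0571). The 21-day difference of Wif1 between levels was 0.00 ± 0.34 (95% interval -0.71 to 0.72). All 7 inhibitors among the members had a lower mean log2 value at 21 than at 14 days after distal amputation. This held for 8323 of all 15055 genes. Of the 7 falls 5 were called, against 21.5% of all genes. After proximal amputation 6 of the 7 were lower, against 7622 of all genes, and 4 were called lower, against 16.3%. The distal Sfrp1 call (-0.42 ± 0.16, adjusted p = 0.0495) was lost with median-ratio factors (0.0862), a replicate block (0.0588) and sample weights (0.0547). It was also lost without distal 14-day replicate 1, 2 or 4 or distal 21-day replicate 1, 2 or 3 (adjusted p 0.0606 to 0.174).

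The R-spondins were low and were not called between levels. Group means ran from 17 to 26.2 for Rspo1, from 14 to 43.2 for Rspo3 and from 27.5 to 91.2 for Rspo4. Rspo3 fell from 14 to 21 days after distal (-1.64 ± 0.40, adjusted p = 0.00275) and proximal amputation (-1.16 ± 0.40, adjusted p = 0.0324), the latter lost without proximal 14-day replicate 3 or 4 or proximal 21-day replicate 2 or 4 (adjusted p 0.0742 to 0.116) and with sample weights (0.0714). Rspo1 and Rspo4 were called in none of the 10 comparisons. The Rspo4 estimate between levels was 0.95 ± 0.50 at 12 days (95% interval -0.08 to 1.98).

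**Figure D4:**
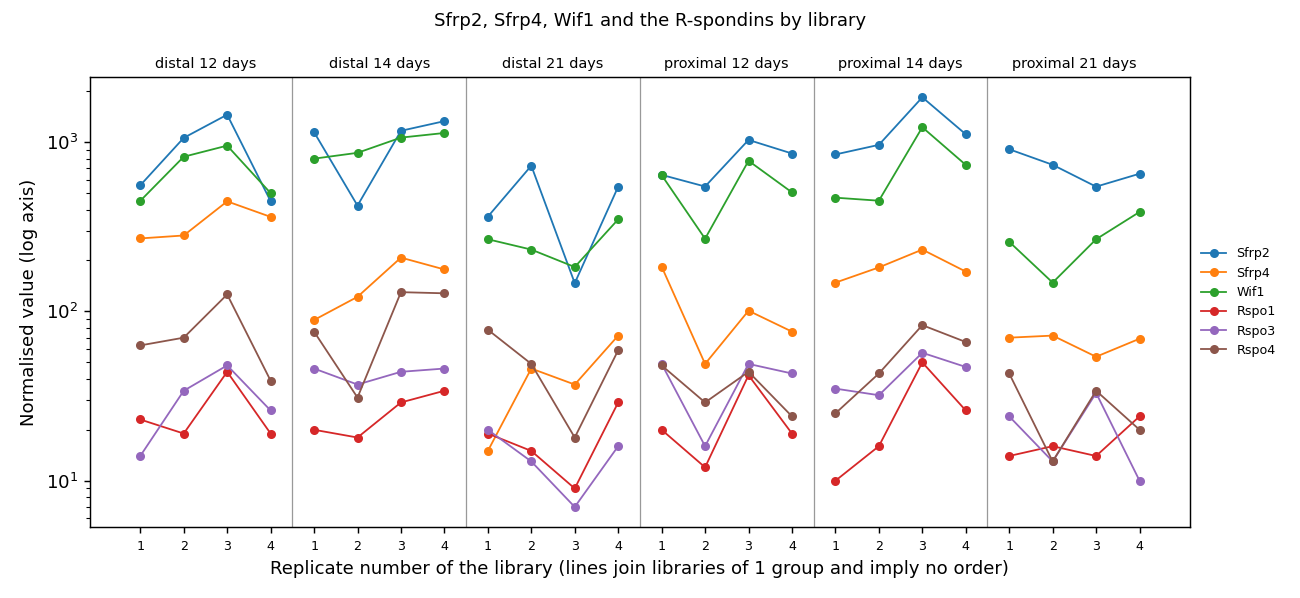
Normalised values, on a log axis, of Sfrp2, Sfrp4, Wif1, Rspo1, Rspo3 and Rspo4 in each of the 24 libraries, by group and replicate number; lines join libraries of 1 group and imply no order. Libraries of 1 group differ widely, with Sfrp2 between 147 and 726 in the distal group at 21 days.

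**Figure D5:**
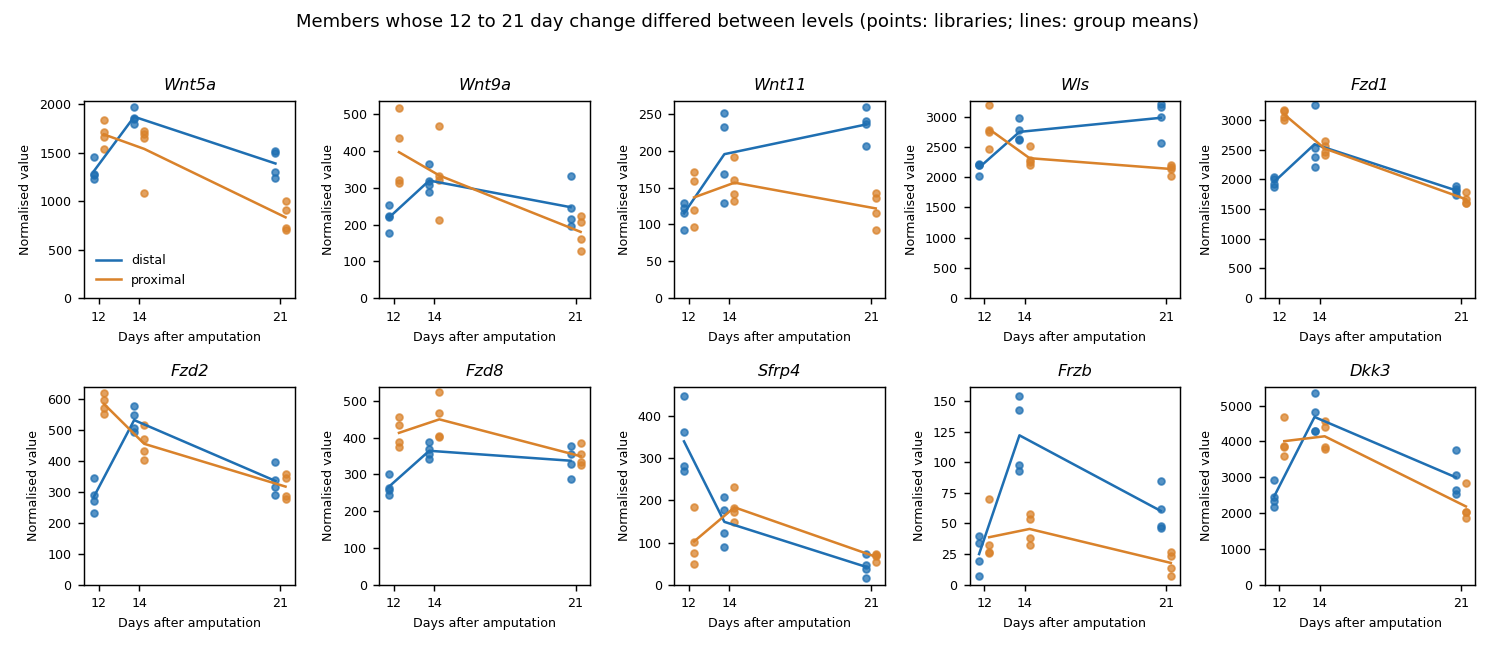
Normalised values of the 10 genes whose 12 to 21 day change differed between levels, against days after amputation; points are libraries, shifted sideways by level so that they do not hide each other, and lines join group means (blue distal, orange proximal). Distal means start lower at 12 days in 9 of the 10 panels and higher for Sfrp4, and the gap has closed or turned by 21 days in most panels, with Fzd8 still slightly lower.

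Other genes of the pathway were taken from a list of 46 measured genes that are not members. The list mixes intracellular components and transcription factors with further receptors and secreted inhibitors, such as Lgr4, Sost, Sostdc1 and Notum. At 12 days 9 of the 46 (19.6%, against 20.3% of all genes) differed, 7 higher and 2 lower after distal amputation. The higher ones were the transcription factors Lef1 (2.24 ± 0.44, adjusted p = 0.000984) and Tcf7 (1.72 ± 0.16, adjusted p = 3.17e-07), beta-catenin itself (Ctnnb1, 0.25), the R-spondin receptor Lgr4 (0.48), the polarity genes Vangl1 (0.41) and Celsr1 (0.43), and Myc (0.42). The lower ones were the R-spondin receptor Lgr5 (-1.38) and Adgra2 (-0.64), which with Reck takes part in ligand recognition in brain vessels. At 14 days 4 differed, against 5.39% of all genes: Tcf7 (0.64), the feedback inhibitor Nkd1 (0.61) and the beta-catenin cofactor Pygo1 (0.42) were higher and Daam1 (-0.27) was lower.

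At 21 days 16 of the 46 (34.8%, against 17.6% of all genes) differed, 13 higher and 3 lower after distal amputation. Calls of the 46 genes, on this and the other days, were not examined under the alternative settings. For the members, the 21-day split on table totals was 5 higher and 6 lower. Lef1 (2.13 ± 0.44, adjusted p = 0.00229), Tcf7 (1.32) and Nkd1 (1.34 ± 0.17, adjusted p = 2.6e-05) were higher. So were Ctnnb1 (0.24), Gsk3a (0.25), Dvl1 (0.29), Lgr4 (0.40), Tnfrsf19 (0.94), Pygo1 (0.37), Ptk7 (0.31), Prickle1 (0.51), the heparan sulphate proteoglycan Gpc3 (1.13 ± 0.16, adjusted p = 7.17e-05) and Tspan12 (0.95). The secreted inhibitor Sostdc1 (-1.16), Gpc4 (-0.47) and Trabd2b (-0.52), a protease of Wnt ligands, were lower. In the 12 to 21 day change 13 of the 46 (28.3%, against 14.8% of all genes) differed between levels, 10 more positive and 3 more negative after distal amputation. The median difference over the 46 was 0.01 at 12 days, 0.06 at 14 days and 0.16 at 21 days.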

How the data were processed

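Gene expression was measured by RNA sequencing in 24 libraries. Reads were trimmed with cutadapt, aligned with STAR 2.5.4b to mm10 and assigned to genes with featureCounts 1.6.3 (Subread), per the submitters' processing notes. The authors deposited 1 whole-number score per gene and library with the gene length; the normalisation step is not stated. Among the 9650 genes whose values all exceed 100, the spread along the combination of libraries that varies least was 0.00674 (natural log), against 0.0453 from Poisson sampling alone. The values were therefore taken as normalised and rounded, no count model was used, and p-values may be too small where a per-library factor was already removed. Depth is unknown.

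Groups came from the source names of the samples, and sample titles were used to match the columns of values to samples. In limma 3.58.1 (R 4.3.3), log2(value + 1) of all 15055 genes was fitted with 6 group means (18 residual and 3.91 prior degrees of freedom), with moderated standard errors, a variance trend and Benjamini-Hochberg adjustment, for 10 comparisons. The procedure was tested on simulated data with independent spread for each gene and library. These data had no per-library factor removed, so they cannot show whether p-values are too small for that reason. Alternatives were median-ratio factors, table totals, pseudocounts of 0.5 and 8, a minimum mean value of 50, only the compared groups, a replicate block, sample weights and each library left out in turn. Every member is named; values of each library are given for members called between levels or in the difference of the 12 to 21 day change, and other pathway genes are named where called between levels. The members and lists were chosen with earlier results of these data known.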

Additional observations from a re-analysis of the deposited data

Results flagged for a closer look

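In 12 of the 246 sets of 4 libraries (41 genes in 6 groups, 4.88%), 1 library stood apart from the other 3 by more than Dixon's 95% limit; chance gives about 1 in 20. After distal amputation, Wnt10a was 877 in 12-day replicate 2 (others 1012 to 1033), Wls was 2023 in 12-day replicate 4 (2199 to 2213) and Rspo1 was 44 in 12-day replicate 3 (19 to 23). In distal 21-day replicate 2, Wnt4 was 1795 (others 2034 to 2072) and Fzd3 was 648 (827 to 842). After proximal amputation, 12-day replicate 1 held 480 for Fzd3 (others 413 to 424) and 70 for Frzb (26 to 32), and 12-day replicate 3 held 2723 for Lrp5 (2327 to 2381). Wnt5a was 1085 in proximal 14-day replicate 2 (others 1653 to 1725). At 21 days after proximal amputation, Sfrp1 was 680 in replicate 1 (others 1136 to 1228), Dkk3 was 2830 in replicate 2 (1860 to 2024) and Sfrp4 was 54 in replicate 3 (69 to 72).

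The change from 12 to 21 days differed between amputation levels for 10 of 41 members, against 14.8% of all genes, by the test of that difference. On the log2(value + 1) scale, distal minus proximal, it was 1.12 for Wnt5a, 1.30 for Wnt9a, 1.19 for Wnt11, 0.84 for Wls, 0.78 for Fzd1, 1.13 for Fzd2, 0.57 for Fzd8, -2.67 for Sfrp4, 2.56 for Frzb and 1.16 for Dkk3. These are the calls given above, and that of Fzd8 was lost on table totals (adjusted p 0.0673).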

How the results depend on the processing

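Over 8 alternative settings, 54 of 976 outcomes for single member calls were no longer called and 0 changed direction; of 123 calls, 35 were lost under at least 1 setting and 42 when at least 1 library was left out. The count of members called stayed within 1.5 times under all 8 settings in each comparison. With 1 library left out it ran from 10 to 13 between levels at 12 days, from 0 to 2 at 14 days (0 without distal replicate 2 or proximal replicate 2 or 3) and from 6 to 10 at 21 days (6 without distal replicate 1 or 3). From 12 to 14, 14 to 21 and 12 to 21 days it ran from 12 to 15, from 14 to 18 and from 11 to 13 after distal amputation, and from 5 to 8, from 14 to 16 and from 13 to 15 after proximal amputation; for the difference of the 12 to 21 day change it ran from 10 to 12. Frzb at 14 days was called between levels with a pseudocount of 8 (adjusted p 0.0291) and with only the compared groups (0.0262).

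Replicate numbers are shared across groups. Over 12 pairs of distal and proximal libraries of 1 day and number, the correlation of deviations from the group means ran from -0.19 to 0.19. It was over 0.1 in 2 pairs. Libraries of different days were not compared. A per-library factor removed before deposit could have taken a shared deviation with it, so these correlations cannot decide whether same-numbered libraries belong together. With a replicate block the counts were 13, 2 and 8 between levels at 12, 14 and 21 days, 16, 17 and 14 for the distal and 8, 18 and 15 for the proximal changes in the order above, and 11 for the difference of changes; among the calls between levels, Wnt5a at 12 days (adjusted p 0.0531) and Fzd3 at 21 days (0.0692) were then not called, while Ror1 at 12 days (0.0459) and the Wnt16 difference of changes (0.0487) were.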

Other observations

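In 2 of the 6 groups, 6 secreted modulators were all highest in 1 library; these genes were chosen after the values were seen. In distal 12-day replicate 3, Sfrp2 (1453), Sfrp4 (447), Wif1 (954), Rspo1 (44), Rspo3 (48) and Rspo4 (126) were all the highest of their group, as were 28.3% of all genes. In proximal 14-day replicate 3 the same 6 genes were the highest of their group, at 1841, 232, 1225, 50, 57 and 83, as were 29.2% of all genes. Because of how the genes were chosen, these shares do not measure how unusual the pattern is. Of all 41 members, 19 were highest in distal 12-day replicate 3 and 16 in proximal 14-day replicate 3. In the other 4 groups the 6 highest values were spread over several libraries, with at most 3 in any one.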
